A study of Drosophila melanogaster with 46 samples.

Results

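The 9 segment polarity genes wg, Wnt4, Wnt6, Wnt10, en, inv, hh, ptc and ci were examined for peaks of 4 chromatin proteins in Drosophila melanogaster. A peak was taken when it overlapped the dm6 span of a member gene or the 15 kb on either side of it. This gave 32 distinct peaks of 14902 on the chromosomes used, at 15 sites around the 9 genes, which are 9 of 13946 protein-coding genes. The genes form 5 separate stretches, since the windows of wg, Wnt4, Wnt6 and Wnt10 on 2L join into one and those of en and inv on 2R into another, while ptc (2R), hh (3R) and ci (4) stand alone.

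The samples are chromatin immunoprecipitation sequencing (ChIP-seq) libraries made from whole flies and larvae. The DNA-binding proteins CTCF, Pita and Su(Hw) carry zinc fingers of the C2H2 type, and CP190 is a BTB-domain protein that they can bring to insulators and promoters. The C2H2 lists are named as wild type, and their samples are labelled dCTCFwt in a y1w1118 strain, as adults or as larvae, with 2 samples for each except larval CTCF with 4. CTCF was precipitated through an HA tag. The CP190 list is larval and names no genotype. Of the 18 CP190 samples 4 are dCTCFwt and 14 are mutant (dCTCFdeltaCP alone, with SuHwdelta114, with PitadeltaCP1, or with both), so that list may hold peaks of mutant larvae. Each list holds 1 value per peak and is not tied to samples, so no peak has an error between animals and no difference below was tested. Fold enrichment is the authors' value for a peak against a control that the sources do not name, and ranks count from the highest fold of a list. Read depth is unknown. In whole animals strong binding in few cells and weak binding in many cannot be told apart.

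Segment polarity genes set up the pattern within each segment of the fly embryo. Cells that make Engrailed send out Hedgehog, their neighbours answer through Patched and Cubitus interruptus and send out Wingless, and Wingless in turn keeps Engrailed on. Several of these genes are known targets of Polycomb silencing outside the cells that use them, and insulator proteins are known for binding near the borders of such silenced stretches. No chromatin mark was measured here.

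Of the 9 members, 6 had a peak of any list in their window (wg, Wnt4, Wnt10, hh, ptc and ci), against 91.8% of all protein-coding genes counted in the same way. The same 6 had a CP190 peak, against 82.6% of protein-coding genes. Pita was present at 5 members in adults and at the same 5 in larvae (Wnt4, Wnt10, hh, ptc and ci), against 42.4% of all protein-coding genes in adults and 37.5% in larvae. CTCF was present at 2 members in adults (Wnt4 and Wnt10) and at 3 in larvae (the same and ci), with backgrounds of 18.9% and 22.5%. Su(Hw) was present at ptc alone in both stages, 1 of 9 members, against 51.7% of all protein-coding genes in adults and 54.4% in larvae. The windows of Wnt6, en and inv held no peak of any list, 3 of 9 members, against 8.23% of protein-coding genes. The member windows were 34.2 to 65.2 kb long, with a median of 44.2 kb against 32.2 kb over all protein-coding genes. Neighbouring members share windows and are not independent of each other. Per megabase the joined windows held 30.2 CP190 peaks, 5.49 adult and 10.97 larval CTCF peaks, 19.2 adult and 16.5 larval Pita peaks, and 2.74 Su(Hw) peaks at either stage. Over all protein-coding windows joined, the values were 33.8 for CP190, 5.34 and 6.40 for CTCF in adults and larvae, 11.9 and 9.68 for Pita in adults and larvae, and 24.5 and 26.5 for Su(Hw) in adults and larvae.

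**Figure D1:**
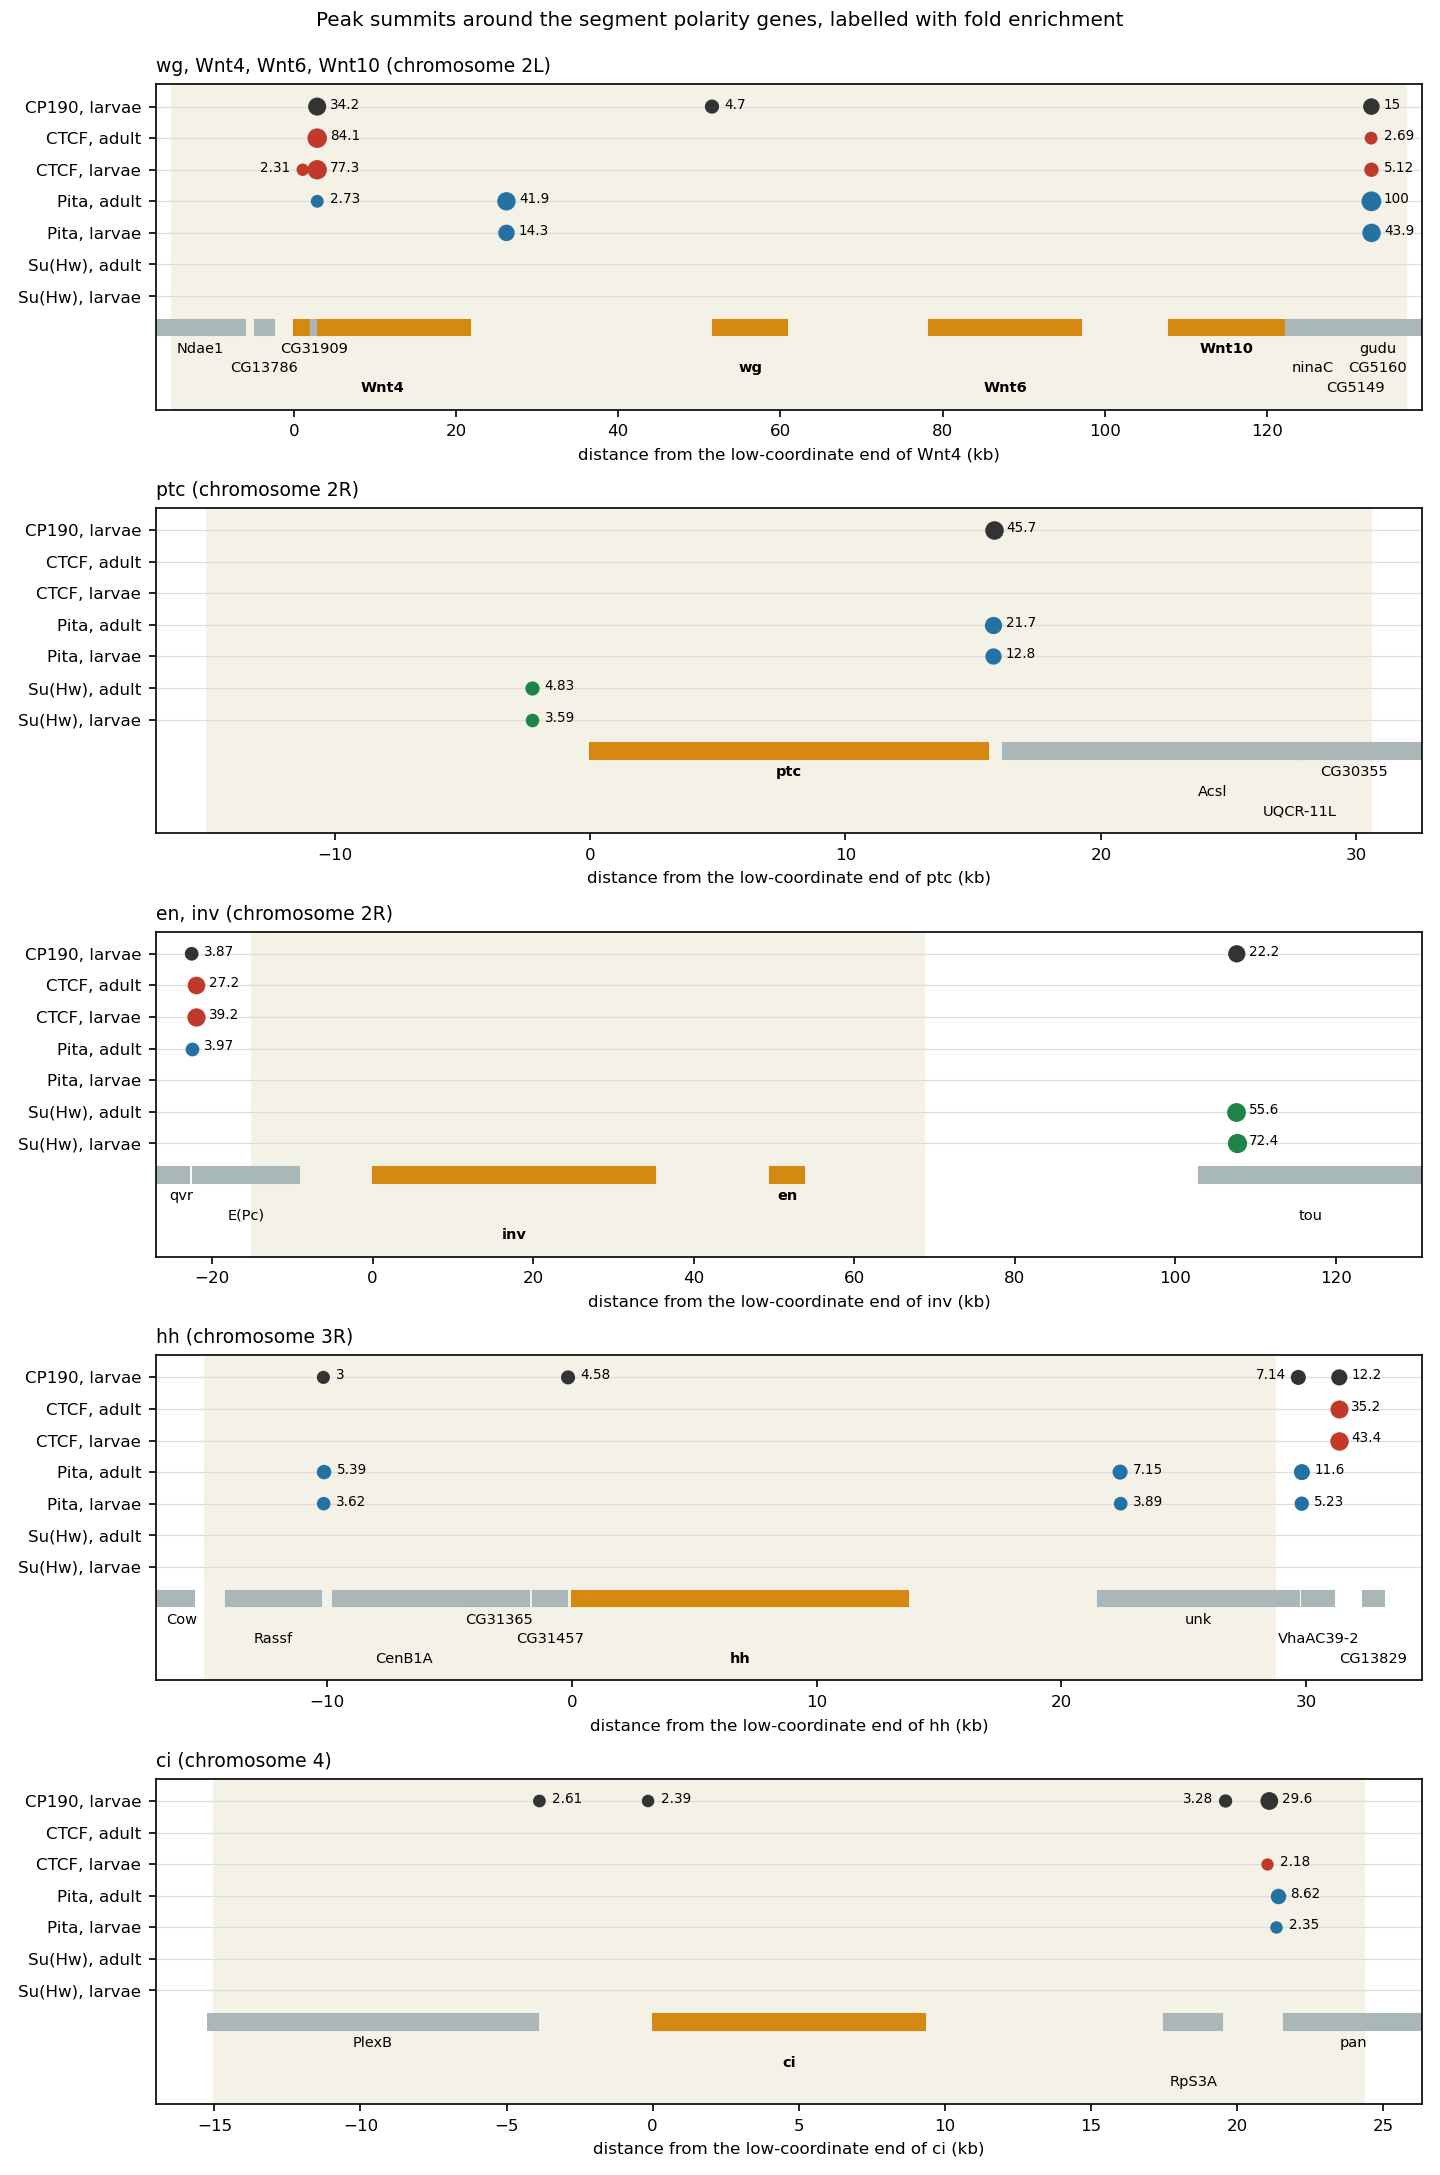
Peak summits of the 7 lists (rows) along the 5 stretches that hold the segment polarity genes, in kb from the low-coordinate end of the first member, with each point labelled by its fold enrichment and larger for a higher fold. Member genes are orange, other protein-coding genes grey, and the shaded part is the gene span plus 15 kb. The stretch of en and inv is empty from a CTCF site at E(Pc) to a Su(Hw) site in tou, and the only Su(Hw) peaks within a shaded part lie beside ptc.

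The ligand genes come first. Wnt4, Wnt6 and Wnt10 encode Wnt ligands and lie in a cluster with wg, the gene of the ligand Wingless, with Wnt4 at the low-coordinate end of the cluster. On 2L the spans are bases 7255419 to 7277171 for Wnt4, 7307159 to 7316265 for wg, 7333714 to 7352542 for Wnt6 and 7363379 to 7377528 for Wnt10. The strongest CTCF site of all members lay inside Wnt4, at bases 7257900 to 7259009 of 2L, 2880 bp from an end of Wnt4 and 101 bp from an end of CG31909, a gene within the Wnt4 span. CTCF was 84.1-fold enriched there in adults (rank 113 of 674 peaks) and 77.3-fold in larvae (rank 131 of 808). CP190 was 34.2-fold enriched at that site (rank 253 of 4220), and the adult CTCF, larval CTCF and CP190 summits fell on the same base, 7258299. Adults also had a Pita peak of 2.73-fold there, rank 1226 of 1498, with no larval Pita peak. A further larval CTCF peak of 2.31-fold lay inside Wnt4, 1095 bp from the same end of the gene, with neither CP190 nor an adult CTCF peak. At this site CTCF and CP190 were thus high in their lists and the adult Pita peak low in its own.

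Between Wnt4 and wg lay a Pita site without CP190, at bases 7280608 to 7282131, 4466 bp above Wnt4 in adults and 4467 bp in larvae. Pita was 41.9-fold enriched in adults (rank 178 of 1498) and 14.3-fold in larvae (rank 302 of 1213), with summits 1 bp apart. No CTCF, Su(Hw) or CP190 peak overlapped it. At wg itself the only peak in the window was a CP190 peak of 4.70-fold (rank 2235 of 4220), at bases 7306760 to 7307238. Its summit was 180 bp outside the low-coordinate end of wg, and no C2H2 peak overlapped it. The gene table used gives no strand, so gene ends are not called starts here.

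Wnt6 had no peak in its window. The closest peak below it was that CP190 peak at wg, 26.5 kb away, and the closest above it was a Pita site 35.2 kb away, between CG5149 and gudu. That site falls in the window of Wnt10, 10762 bp above the gene in adults and past the neighbouring gene ninaC. Pita reached 100.0-fold there in adults, rank 9 of 1498, and 43.9-fold in larvae, rank 49 of 1213, the highest Pita folds among the member windows. CTCF was low at the site, with 2.69-fold in adults and 5.12-fold in larvae, and CP190 was 15.0-fold enriched (rank 836 of 4220). All 5 summits lay within 52 bp. The cluster thus had a CTCF and CP190 site within its low-coordinate end and a Pita and CP190 site beyond its high-coordinate end, with the C2H2 peak of each present in both stages. The closest Su(Hw) peaks lay outside the cluster, 43.2 kb below Wnt4 and 42.2 kb above Wnt10 in both stages.

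hh, at bases 23128169 to 23141906 of 3R, encodes the ligand Hedgehog. CP190 was 4.58-fold enriched (rank 2284 of 4220) between hh and CG31457, with its summit 160 bp from an end of hh and no C2H2 peak on it. The window held 2 Pita sites. Between Rassf and CenB1A, 10130 bp below hh in adults, Pita was 5.39-fold enriched in adults and 3.62-fold in larvae, with a CP190 peak of 3.00-fold. Inside unk, a gene for a zinc-finger protein, and 8662 bp above hh in adults, Pita was 7.15-fold enriched in adults (rank 749 of 1498) and 3.89-fold in larvae (rank 784 of 1213), with no CP190. A last CP190 peak of 7.14-fold reached into the window by its edge, and its summit was 9 bp from an end of unk. It overlapped larval Pita (5.23-fold) and CTCF (43.4-fold) peaks that begin 222 and 841 bp beyond the window. No CTCF or Su(Hw) peak of either stage lay within 15 kb of hh.

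ptc, at bases 8649649 to 8665223 of 2R, encodes Patched, the Hedgehog receptor, and had the highest CP190 peak of all members. It was 45.7-fold enriched, rank 128 of 4220, and covered bases 8663950 to 8666468 of 2R, between ptc and Acsl, a gene of fatty acid activation. Its summit was 223 bp from an end of ptc. Pita was 21.7-fold enriched there in adults (rank 372 of 1498) and 12.8-fold in larvae (rank 337 of 1213), and the 3 summits lay within 14 bp. The only Su(Hw) site of any member was 2266 bp beyond the other end of ptc in adults and 2270 bp in larvae, with 4.83-fold in adults (rank 2618 of 3115) and 3.59-fold in larvae (rank 2677 of 3374) and no CP190. Both Su(Hw) values were in the lower part of their lists.

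ci, at bases 47710 to 57041 of chromosome 4, encodes Cubitus interruptus, the transcription factor that answers Hedgehog. Its window held 4 CP190 peaks, 3 of them low. They were 2.61-fold enriched 56 bp from PlexB, the gene of a plexin receptor, 2.39-fold 158 bp from an end of ci, and 3.28-fold 111 bp from RpS3A, a ribosomal protein gene. The highest was 29.6-fold enriched (rank 333 of 4220), 511 bp from pan and 11774 bp above ci, at bases 68263 to 69740 of chromosome 4. pan encodes the TCF protein that carries the Wingless signal on DNA. Pita was 8.62-fold enriched at this site in adults and 2.35-fold in larvae, and CTCF was 2.18-fold in larvae only. In rank the larval C2H2 peaks were low in their lists, at 1008 of 1213 for Pita and 732 of 808 for CTCF, where CP190 was high in its own.

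en and inv encode the homeodomain proteins Engrailed and Invected and lie next to each other, en at bases 11524006 to 11528210 of 2R and inv at bases 11474465 to 11509695. Neither their spans nor the 15 kb on each side held a peak. The closest peaks were a CTCF site at one flank and a Su(Hw) site at the other. Below inv, 21.5 kb away, CTCF was 27.2-fold enriched in adults (rank 258 of 674) and 39.2-fold in larvae (rank 235 of 808), at bases 11451600 to 11453006 of 2R in larvae. Its summit was 426 bp inside E(Pc), the gene Enhancer of Polycomb, in adults and 424 bp in larvae, and the site carried a low CP190 peak (3.87-fold, rank 2650 of 4220) and a low adult Pita peak (3.97-fold). Above en, 53.1 kb away in adults and 52.5 kb away in larvae, Su(Hw) was 55.6-fold enriched in adults (rank 54 of 3115) and 72.4-fold in larvae (rank 12 of 3374). This site lay inside tou, 4629 bp from an end of that gene in larvae, at bases 11580758 to 11582440, and carried CP190 at 22.2-fold (rank 510 of 4220). Both flanking sites had their main protein in both stages. They fall outside the 15 kb windows and are counted in no total above.

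CP190 was set beside the C2H2 proteins over all member windows. Of the 11 CP190 peaks 6 overlapped a larval C2H2 peak (54.5%, exact 95% interval 23.4% to 83.3%), against 52.3% of the whole list. Those 6 had a median fold of 22.3 (3.00 to 45.7), and the 5 without one a median of 3.28 (2.39 to 4.70). In the whole list the medians were 9.50 with a larval C2H2 peak and 3.59 without. The 5 peaks without were those at the ends of wg, hh and ci and those beside PlexB and RpS3A, all with a summit within 500 bp of a gene end. Of the 6 with one, all but the peak beside pan (511 bp) had a summit 9 to 223 bp from a gene end. The share of the whole CP190 list near a gene end was not counted. A CP190 summit lay within 500 bp of an end of 4 members, wg, hh, ptc and ci, against 31.2% of all protein-coding genes. This distance was chosen after the values were seen.

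**Figure D2:**
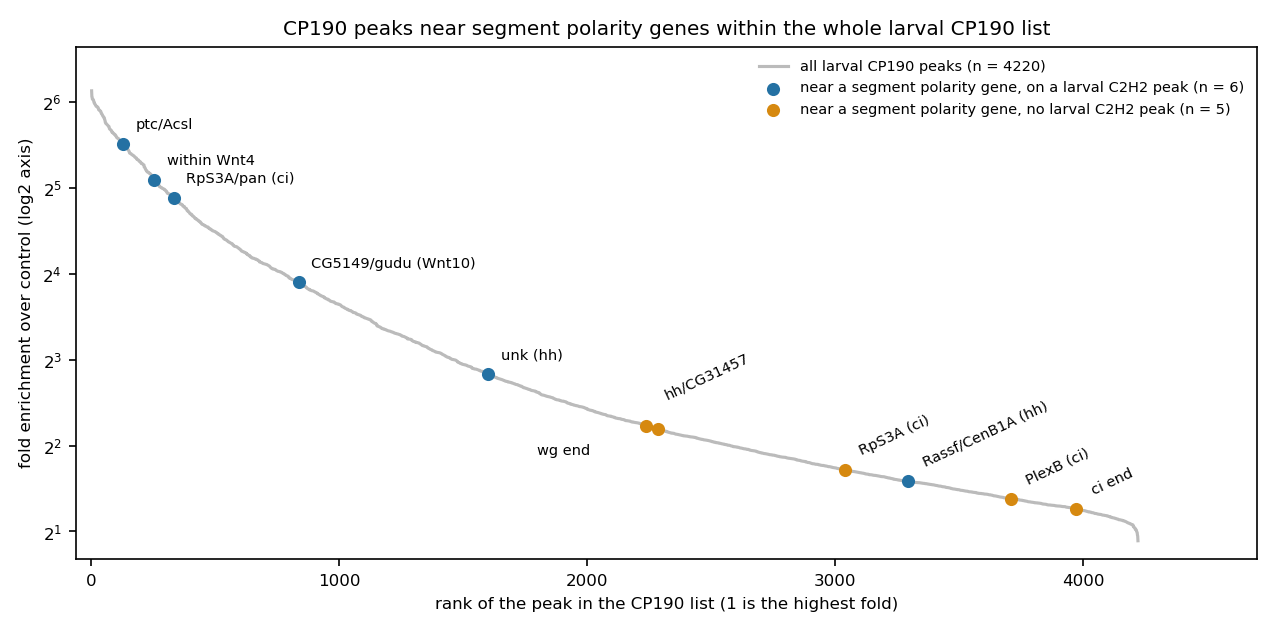
Fold enrichment (log2 axis) against rank for all 4220 larval CP190 peaks (grey line), with the 11 peaks near segment polarity genes marked as on a larval C2H2 peak (blue, 6) or not (orange, 5). The sites at ptc and Acsl, within Wnt4 and between RpS3A and pan ranked 128, 253 and 333, and every orange point lies below 5-fold.

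Looked at from the C2H2 side, 7 of 11 larval peaks in the windows overlapped CP190 (63.6%, exact 95% interval 30.8% to 89.1%), against 46.7% over the whole larval C2H2 lists. By protein these were 3 of 4 CTCF peaks, 4 of 6 Pita peaks and 0 of 1 Su(Hw) peak, against 59.8%, 70.7% and 34.9% of their lists. The 63.6% and the 46.7% rest on unlike mixes of proteins. Su(Hw) made up 3374 of the 5395 larval C2H2 peaks of the whole lists but 1 of the 11 in the windows. The intervals cover counting error only, and each of them includes the share of the whole list.

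Stages were compared site by site. Of the 11 larval C2H2 peaks 9 had an adult peak of the same protein on them (81.8%, exact 95% interval 48.2% to 97.7%), against 83.8% over the whole lists. All 6 larval Pita peaks were present in adults (84.7% over the list), as was the Su(Hw) peak (86.9%). Of the 4 larval CTCF peaks 2 were (69.4%), and the low ones within Wnt4 and beside pan were not. In the other direction both adult CTCF peaks (84.3% over the list), 6 of 7 adult Pita peaks (69.8%) and the adult Su(Hw) peak (93.7%) were present in larvae. At the shared Pita sites the adult fold exceeded the larval one in 6 of 6 cases, by ratios from 1.49 between Rassf and CenB1A to 3.66 beside pan. The list medians differed in the same direction, with 7.12 in adults and 5.97 in larvae. Those medians also include peaks of a single stage, and the share over all shared Pita sites was not counted. At the CTCF sites the adult to larval ratio was 1.09 within Wnt4 and 0.525 between CG5149 and gudu, and at the Su(Hw) site it was 1.35. Folds of 2 lists rest on controls that are not named, so these ratios are descriptions.

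**Figure D3:**
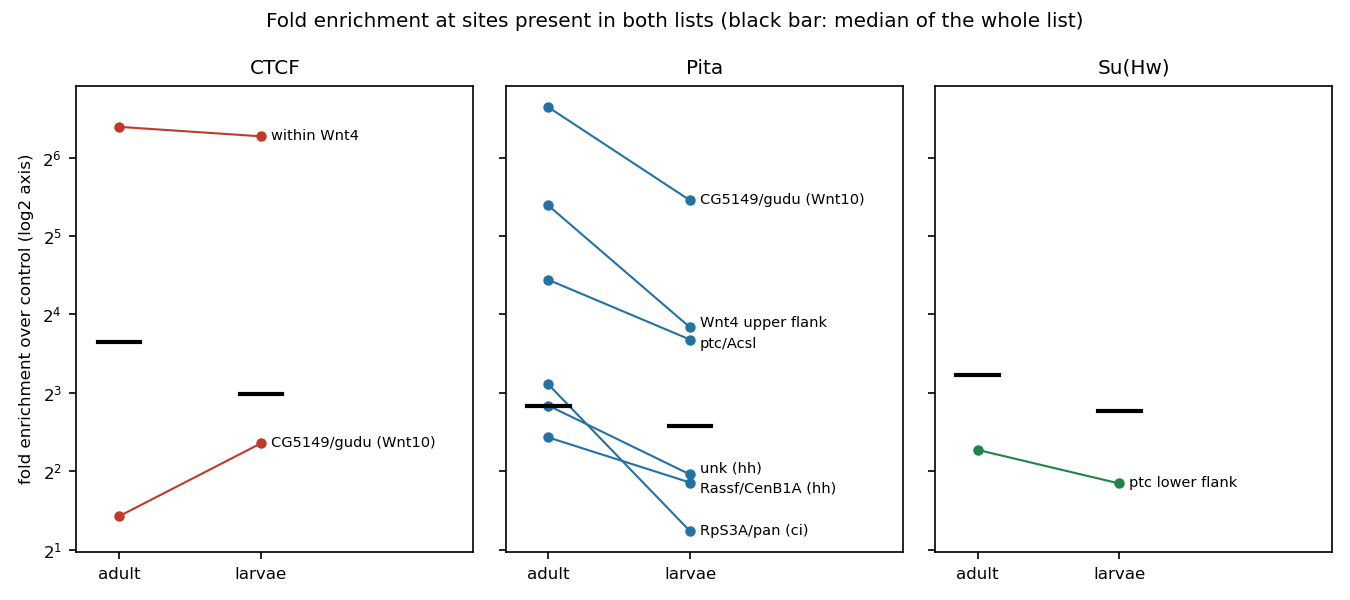
Fold enrichment (log2 axis) in adults (left) and larvae (right) at the sites of the member windows that have a peak of the same protein in both lists, for CTCF (2 sites), Pita (6) and Su(Hw) (1), with black bars for the median of each whole list. All 6 Pita lines and the Su(Hw) line go down to the right, while 1 of the 2 CTCF lines goes up.

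The only repeat measure in the files is the significance of a peak in each of 2 input lists, whose samples are not named. At the CTCF site within Wnt4 the second to first ratio of −log10 p was 0.958 in adults and 0.998 in larvae, and for CP190 it was 1.02. At the CTCF site between CG5149 and gudu it was 0.656 in adults and 0.822 in larvae, and at the larval CTCF peaks near the end of Wnt4 and beside pan it was 0.778 and 1.48. The Su(Hw) peak of ptc had ratios of 2.24 in adults and 1.38 in larvae, with list medians of 2.12 and 1.01. At the CP190 peaks of wg, hh and ci it was 0.906, 1.06 and 1.00. The larval Pita peaks had ratios from 1.28 between Rassf and CenB1A to 3.75 beside pan, and the median of the whole larval Pita list was 1.85. The adult Pita peaks of the members had ratios from 0.957 to 1.19, and the median of the whole adult Pita list was 1.00. The larval Pita inputs thus differed more than the adult ones at these sites, as they did by the medians of the whole lists.

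The other genes of both pathways were counted in the same way. In the Wingless pathway 24 of 26 genes had CP190 in their window, 11 CTCF in each stage, 16 Pita in each stage and 15 Su(Hw) in each stage. In the Hedgehog pathway 18 of 18 genes had CP190, 3 and 4 CTCF in adults and larvae, 13 and 11 Pita, and 8 and 9 Su(Hw). The shares of all protein-coding genes are those given above. In larvae Su(Hw) was thus listed at 11.1% of the 9 members, against 57.7% of the Wingless and 50.0% of the Hedgehog pathway genes. Among the 12 genes grouped below as upstream regulators it was listed at 33.3%. A CP190 summit lay within 500 bp of an end of 15 of 26 Wingless and 10 of 18 Hedgehog pathway genes, against 31.2% of all protein-coding genes. The highest of these were at fz2 (60.9-fold), a Wingless receptor gene, and at Axn (59.9-fold), a scaffold of the complex that destroys the signal carrier Armadillo. Next came Apc (46.6-fold), of the same complex, Su(fu) (32.3-fold), an inhibitor of Cubitus interruptus, and arr (28.2-fold), a Wingless co-receptor. Pita summits lay at the ends of Axn with 41.8-fold in adults and 21.7-fold in larvae, and of Apc with 36.8-fold in adults and 13.8-fold in larvae. These Apc summits of CP190 and Pita were closer to spg, 173 bp away by the CP190 summit, than to Apc, 349 bp away. In larvae the highest Pita peak at an end was at fz2 (37.5-fold), whose window held no adult Pita peak.

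Larval CTCF summits lay within 500 bp of an end of 6 of 26 Wingless pathway genes and 0 of 18 Hedgehog pathway genes, against 3.8% of protein-coding genes. In adults the counts were 4 and 0, against 3.06%. The CTCF peaks at the Wingless receptor gene fz4 (30.2-fold in adults, 69.8-fold in larvae), the glypican gene dlp (31.1-fold in adults, 36.7-fold in larvae) and arr (15.2-fold in adults, 23.4-fold in larvae) were in both stages. Adult Pita summits lay at 4 of 26 Wingless and 6 of 18 Hedgehog pathway genes, against 9.41%, and larval ones at 5 of 26 and 6 of 18, against 8.53%. Su(Hw) summits lay at 2 of 26 and 2 of 18 in adults, against 4.9%, and at 3 of 26 and 2 of 18 in larvae, against 5.23%. The Hedgehog co-receptor gene boi had Pita (29.1-fold in adults, 23.0-fold in larvae) and CP190 (24.6-fold) at one end and Su(Hw) (21.8-fold in adults, 16.9-fold in larvae) and a second CP190 peak (11.5-fold) at the other. At the first of these ends the summits were closer to tko, 34 bp away by the CP190 summit, than to boi, 157 bp away. Gprk2, whose kinase acts on the Hedgehog signal transducer Smoothened, had the highest Su(Hw) peak of either pathway 428 bp from one end in adults (89.9-fold) and 429 bp in larvae (106-fold). That summit was closer to Loxl1, at 78 bp in larvae. The highest CP190 peak in a Wingless window, 70.2-fold, was 8107 bp from fz4 and lay next to Sxl, and the highest adult CTCF peak, 204-fold, was 11403 bp from gish and next to bor.

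A further 12 genes (gsb, gsb-n, slp1, slp2, mid, H15, prd, eve, ftz, odd, run and opa) were grouped for counting as upstream regulators. The grouping is a label and does not place each gene above the segment polarity genes. Of the 12, 7 had CP190 in the window (gsb, gsb-n, slp1, prd, eve, ftz and odd), 5 Pita in each stage, 2 CTCF and 4 Su(Hw) in each stage. Over all protein-coding genes the shares were 82.6% for CP190, and 42.4% and 37.5% for Pita in adults and larvae. They were 18.9% and 22.5% for CTCF, and 51.7% and 54.4% for Su(Hw). A peak of any list was in the window of 8 of the 12 (66.7%), against 91.8% of protein-coding genes. None of the 12 had a summit of any of the 7 lists within 500 bp of an end. Of protein-coding genes 31.2% had a CP190 summit within that distance, and 3.06% to 9.41% a summit of each other list. Their highest CP190 peak, 27.7-fold, and highest CTCF peaks, 54.4-fold in adults and 42.6-fold in larvae, shared a site 12094 bp, by the CP190 summit, from the pair-rule gene odd and next to Ugt36A1.

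**Figure D4:**
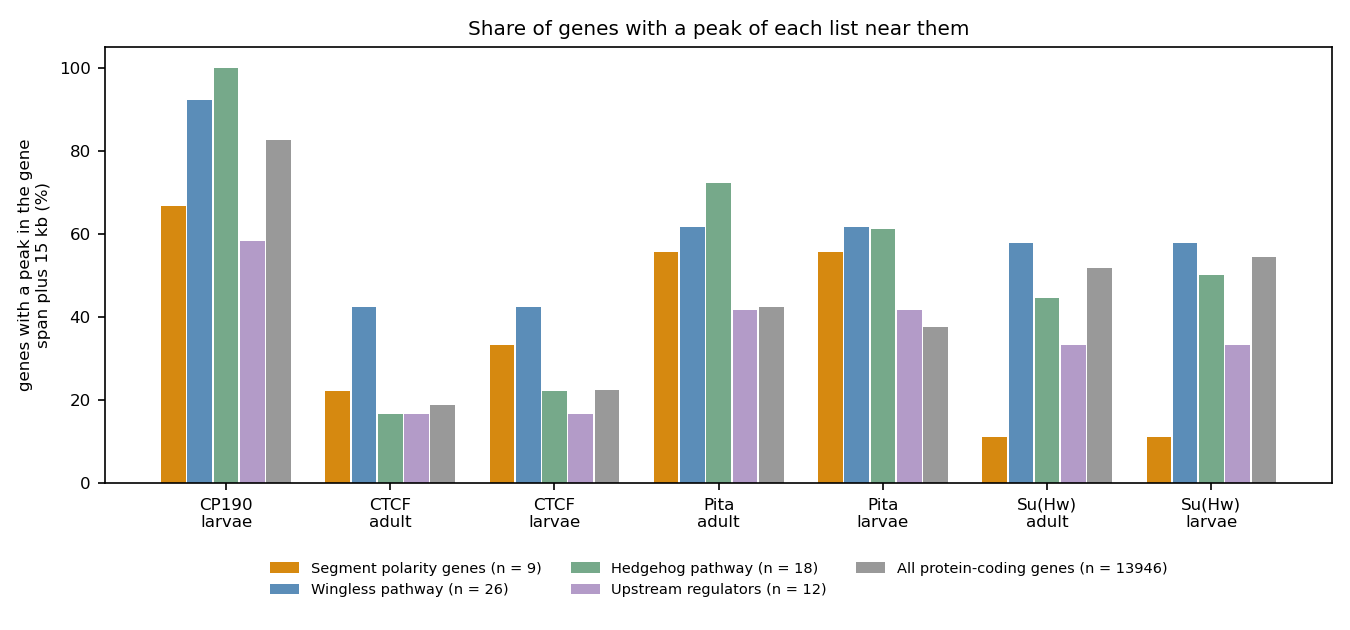
Share of genes (%) whose span plus 15 kb holds a peak of each list, for the 9 segment polarity genes, the Wingless (26 genes), Hedgehog (18) and upstream regulator (12) lists and all 13946 protein-coding genes. Su(Hw) was listed at 11.1% of the segment polarity genes in each stage, against 51.7% of all protein-coding genes in adults and 54.4% in larvae.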

How the data were processed

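The authors deposited 7 peak lists on dm6, per the submitters' processing notes. Those notes also name MACS2, Bowtie2, cutadapt, Picard, deepTools and bedtools, but not what each did. The layout is that of a comparison of 2 input lists by irreproducible discovery rate (IDR). The sources used here do not say which samples made an input or the control. Deposited values used are the fold enrichment (a linear ratio), the −log10 p of each input, the −log10 q, the summit position within each peak, and the scaled score and −log10 IDR, which are both scores. The scaled score was not used further. The protocol text describes larval chromatin only, although 3 lists are adult, and a rat antibody against CP190 where wild-type CP190 samples are labelled rabbit.

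Python 3.11.15, pandas 2.3.3, numpy 2.4.6, scipy 1.17.1 and matplotlib 3.10.9 were used. Peaks of the main chromosome arms, 4, X and Y entered, and those on unplaced sequences (4 to 16 per list) did not. Gene spans came from the RefSeq table of Release 6, the same assembly as dm6. A peak was in a window when it overlapped it by at least 1 bp, the same minimum made a pair of peaks shared, and overlapping peaks of the windows made a site. Distances are from summits to gene ends, except that distances from Wnt6, en and inv to the closest peaks, from the Wnt cluster to the closest Su(Hw) peaks, and from a window to peaks beyond it run to the peak's edge. Rank 1 is the highest fold of a list. Intervals are exact Clopper-Pearson. Overlap counting was tested on simulated peaks. The members and lists were chosen with earlier results of these data known. All members are described, and neighbours are named where an end lies within 500 bp of a named peak, where the summit lies in their span, or where they are the closest. Of the pathway lists, genes with the highest peak of a list were named, and after seeing the values those with the highest peaks at their ends. No sequence was used here.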

Additional observations from a re-analysis of the deposited data

How the results depend on the processing

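Counts follow the width of the window. With the gene span plus 5 kb there were 16 peaks, and 1 member had larval CTCF and 2 larval Pita, against backgrounds of 12.3% and 22.0%. With the gene span alone there were 10 peaks. Larval CTCF was at 1 member, larval Pita at 1 and larval Su(Hw) at 0, against 5.50%, 9.87% and 10.99%. Of the 56 genes in the Wingless, Hedgehog and upstream regulator lists, 26 had CP190 at that setting and 49 with 15 kb. The shares of all protein-coding genes were 34.1% and 82.6%. With 30 kb there were 54 peaks, 6 members had larval CTCF and 2 larval Su(Hw), against 35.5% and 75.6%. When only peaks that reached their list's median −log10 q were used there were 14. Larval CTCF was then at 1 member, larval Pita at 3 and larval Su(Hw) at 0, against 12.9%, 21.5% and 35.9%. At that setting 4 of 4 larval C2H2 peaks had an adult partner (100%). The share over the whole lists at that setting was not counted, so this value has no background beside it. Without the wg, Wnt4, Wnt6 and Wnt10 stretch 19 peaks remained. Of the background shares under these and other settings 21 moved beyond their 95% interval and 7 did not. The other 58 values for the members and the genes of those lists stayed within 1.5 times the count or within the 95% interval of the share. They include those with summits in the window, an IDR of at most 0.01, another rule for shared peaks, each other stretch left out, and ends within 200 or 1000 bp, the last chosen after seeing the data. Both limits are wide, and some values within them still changed against their background. CP190 was at 4 members with the gene span alone, against 34.1% of protein-coding genes, and at 8 with 30 kb, against 91.8%. With 5 kb, 2 of 5 larval C2H2 peaks overlapped CP190 (40.0%). Leaving out replicates and the planned search of promoter letters were not run, as lists are not tied to samples and no sequence was used. No paired analysis was possible because no list is tied to a replicate.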

Other observations

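The peak-free stretch around inv and en ran from base 11453007 to base 11580757 of 2R, 128 kb. No other protein-coding gene lay wholly inside it, and genes that reach into it from its edges, such as tou, were not counted. This stretch ranked 41 of 7411 gaps between neighbouring peaks of the 7 lists joined, whose median was 9.37 kb. The stretch from the CP190 peak at wg to the Pita site beside gudu was 80.5 kb and ranked 123. It holds Wnt6, Wnt10 and ninaC in full and most of wg, whose low-coordinate end the CP190 peak overlaps. ci lay in a gap of 19.4 kb, rank 1857. These ranks were computed after the gaps had been seen, and they describe listed peaks only, since signal outside peaks was not analysed here.

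High peaks also lay just outside the windows of hh and ptc. Beyond hh, next to VhaAC39-2, a gene for a proton pump subunit, CTCF was 35.2-fold enriched in adults (rank 230 of 674) and 43.4-fold in larvae (rank 223 of 808), with CP190 at 12.2-fold. Beyond ptc, 1890 bp past the window and 23 bp from an end of CG8635, CP190 was 48.1-fold enriched (rank 103 of 4220), with Pita at 27.9-fold in adults and 18.3-fold in larvae. ptc thus lay between this site and the one it shares with Acsl, and each carried larval CP190 and Pita of both stages.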
